A study of Mus musculus with 8 samples.

Results

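The genes described here were 10 regulators of the G1 phase and of cell-cycle entry: the D-type cyclins Ccnd1, Ccnd2 and Ccnd3, their kinase Cdk6, the CDK inhibitors Cdkn1a (p21), Cdkn1b (p27), Cdkn1c (p57), Cdkn2c (p18) and Cdkn2d (p19), and the transcription factor gene Myc. They were taken by symbol from the 27998 rows of the gene table, and all 10 were found and had enough counts to be tested. Single-cell RNA-seq was performed on bone marrow LK cells (lineage-negative, cKit-positive), to which LK CD150+ CD48- CD34- hematopoietic stem cells (HSCs) had been added, so the proportion of stem cells was set in part by the sort. The mice were wildtype and 12 to 14 weeks old, and the study's methods give C57Bl/6 as the wildtype strain. Control mice received 100 µl PBS, and treated mice received 50000 IU recombinant mouse IFNα per 20 g body weight under the skin and were analyzed after 3, 24 or 72 h. Each time point held 4 mice, told apart by hashtag antibodies and processed in 1 droplet library, so the time point and its library cannot be told apart.

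Cells were kept if they carried a single hashtag call, held 700 or more detected genes and had no more than 5% mitochondrial UMIs. A cell with at least 1 UMI of Hlf, a transcription factor gene used as a marker of stem cells, was called Hlf-positive, and the remaining LK cells were called Hlf-negative. Of 10046 kept cells, 3953 were Hlf-positive: 880 of 2474 in control, and 573 of 1661, 1513 of 3462 and 987 of 2449 at 3, 24 and 72 h. Control mouse 4 contributed 25 Hlf-positive and 33 Hlf-negative cells. The median depth of Hlf-positive cells was 14482.5 UMIs in control and 10014, 15981 and 12739 UMIs at 3, 24 and 72 h. The summed level of the 12 other HSC markers (among them Mecom, Procr and Fgd5) lay between 307 and 473 CPM in Hlf-positive cells of control mice and between 66.0 and 78.7 in their Hlf-negative cells. The population was not made of stem cells alone. A mean of 57.1% ± 2.7 (SD, n = 4 mice) of the Hlf-positive control cells passed a gate for myeloid progenitors or monocytes, set at 2 or more UMIs of at least 2 listed markers such as Mpo, Elane and Irf8.

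D-type cyclins bind CDK4 or CDK6 in response to growth signals, and the active kinases phosphorylate the retinoblastoma protein and release E2F factors that drive entry into S phase. INK4 proteins such as p18 and p19 bind CDK4 and CDK6, whereas the CIP/KIP proteins p21, p27 and p57 act on cyclin-CDK complexes, and p57 and p27 are known for keeping HSCs in quiescence. MYC drives ribosome production and growth and is low in dormant HSCs, and IFNα is known to push quiescent HSCs into the cycle for a short time.

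All levels below are UMI counts summed over the Hlf-positive or the Hlf-negative cells of a mouse. They are given as CPM, the gene's share of all counts on a common scale, after TMM scaling unless marked as by library size. Changes are log2 fold changes ± SE from edgeR's quasi-likelihood test on these sums (4 mice per time point), with Benjamini-Hochberg adjusted p over all tested genes, and a gene was called at an adjusted p under 0.05. A sum over a mixed population falls both when fewer cells of a type are present and when each cell holds less RNA of the gene, and these cannot be told apart. In Hlf-positive cells at 3 h, 2 of the 10 genes rose and 1 fell, against 13.5% and 9.13% of all 11004 tested genes. At 24 h 1 rose and 0 fell, against 5.18% and 3.32% of all genes, and at 72 h 1 rose and 1 fell, against 7.82% and 7.90%. In Hlf-negative cells, 6 rose and 1 fell at 3 h, where 19.0% and 17.8% of 11349 tested genes were called. There 2 rose and 1 fell both at 24 h, against 12.9% and 10.8%, and at 72 h, against 16.9% and 16.1%. The share of the 10 genes called in Hlf-positive cells was thus near the share of all genes, and the results below are those of single genes.

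**Figure D1:**
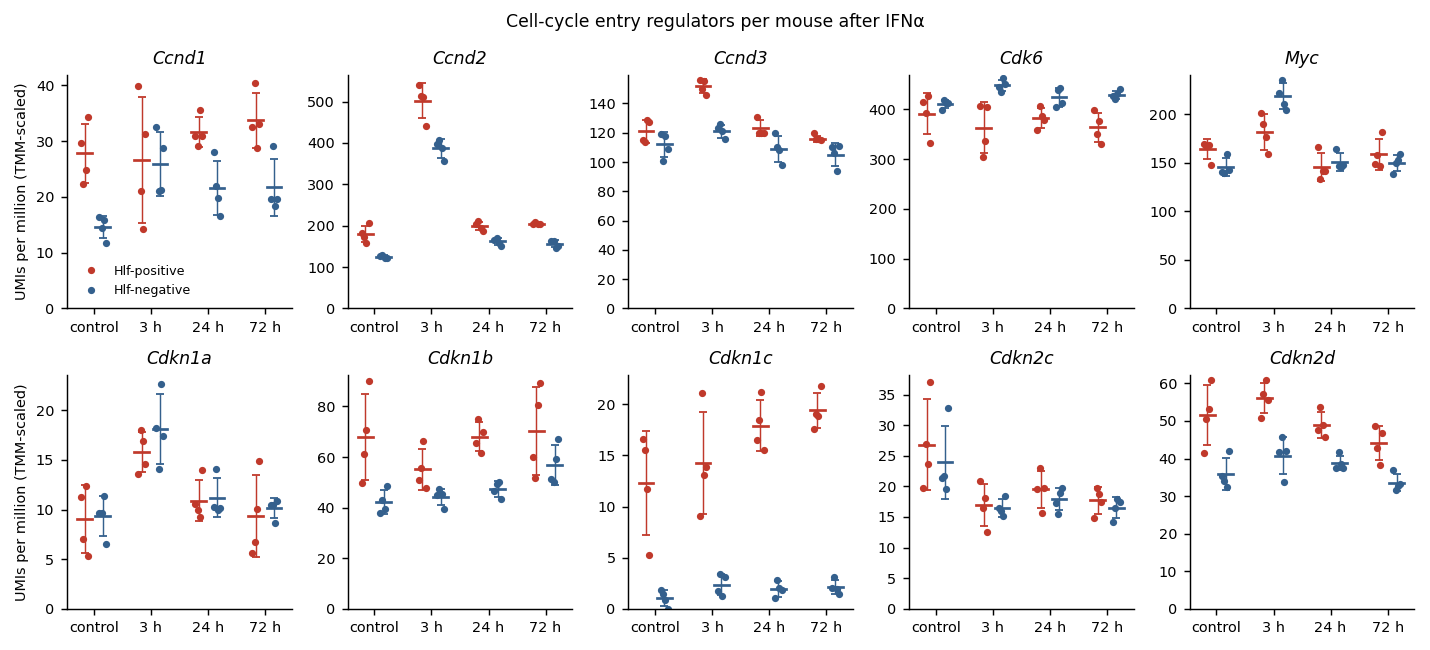
Levels of the 10 genes in each mouse in CPM after TMM scaling (vertical axes) against time point (horizontal axes), with points for single mice, a line for the mean and a bar for the SD of 4 mice, in Hlf-positive (red) and Hlf-negative (blue) cells. Ccnd2 at 3 h lay between 442 and 540 in Hlf-positive cells, above all 12 other mice, and Myc at 3 h lay between 205 and 236 in Hlf-negative cells, above the 4 control mice.

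Ccnd2, which encodes cyclin D2 (chromosome 6, 127125162 to 127152193, minus strand, GRCm38), gave the largest change of the 10 genes in both populations. In Hlf-positive cells of the 4 control mice its level was 182, 173, 157 and 206 CPM. At 3 h it was 540, 514, 511 and 442. Every mouse at 3 h was above every control mouse, and the rise was 1.53 ± 0.07 on the log2 scale, or 2.88-fold (edgeR adjusted p = 5.97e-23). At 24 h the levels were 203, 211, 195 and 187, and at 72 h they were 204, 209, 203 and 205. The level at 24 h was lower than at 3 h by 1.33 ± 0.06 on the log2 scale (edgeR adjusted p = 8.56e-22), with no overlap between the mice. The ranges at 24 h and control overlapped, and the 4 mice at 72 h lay above control mice 1 to 3, but only mouse 2 lay above control mouse 4. The fitted differences from control were 0.19 ± 0.06 at 24 h (edgeR adjusted p = 0.0478) and 0.24 ± 0.06 at 72 h (edgeR adjusted p = 0.00884). The call at 24 h was lost without any one of 9 mice, the highest adjusted p being 0.319 at 0.13 ± 0.07 without control mouse 3. It was also lost with DESeq2 (adjusted p = 0.0578), the likelihood ratio test (0.0847), library size alone (0.094), Hlf called after thinning (0.155) and at least 2 Hlf UMIs (0.064), at 0.17 to 0.21 on the log2 scale. The call at 72 h was lost without control mouse 3 (0.18 ± 0.07, adjusted p = 0.0986). Neither was called among cells with at least 3 of 7 detected HSC markers, chosen without Hlf, where the difference was -0.05 ± 0.09 at 24 h (edgeR adjusted p = 0.892), of opposite sign, and 0.06 ± 0.09 at 72 h (adjusted p = 0.82).

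The rise of Ccnd2 was not confined to Hlf-positive cells. In Hlf-negative cells its level was 127, 129, 123 and 121 CPM in control and 398, 408, 388 and 356 at 3 h, a rise of 1.62 ± 0.05 (edgeR adjusted p = 3.48e-26). It stayed above control at 24 h, by 0.36 ± 0.05 (edgeR adjusted p = 5.28e-07), and at 72 h, by 0.31 ± 0.05 (edgeR adjusted p = 9.1e-06), in mice that did not overlap with control at either time. The change at 3 h differed by -0.11 ± 0.06 between Hlf-positive and Hlf-negative cells of the same mice, which did not pass the test (edgeR adjusted p = 0.523). After every cell had been thinned to 5000 UMIs, a mean of 57.7% ± 6.05 (SD, n = 4) of Hlf-positive control cells and 87.3% ± 2.38 of those at 3 h held a Ccnd2 UMI (two-sided exact permutation test over mice, p = 0.0286, the smallest possible, 0.171 after adjustment over 30 comparisons). Without thinning the shares were 85.4% and 98.5%. In the Hlf-negative cells of the erythroid gate (Klf1, Car1 and other markers), the thinned share was 47.1% in control and 82.4% at 3 h, so a Ccnd2 UMI was frequent in both cell types.

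Ccnd3, encoding cyclin D3 (chromosome 17, 47505051 to 47599691, plus strand), rose to a smaller extent. Its level in Hlf-positive cells was 115, 114, 129 and 127 CPM in control and 156, 150, 155 and 146 at 3 h. No mouse at 3 h overlapped with control, and the rise was 0.34 ± 0.07, or 1.27-fold (edgeR adjusted p = 0.00012). The call held in all 26 alternative settings, with 0.18 ± 0.07 (adjusted p = 0.0359) by library size alone as the smallest change. At 24 h the level was 131, 120, 120 and 120, lower than at 3 h by 0.31 ± 0.06 on the log2 scale (edgeR adjusted p = 0.000275), and at 72 h it was 120, 116, 116 and 115. In Hlf-negative cells the difference at 3 h was 0.11 ± 0.07 (edgeR adjusted p = 0.19), and the difference between the populations, 0.21 ± 0.08, did not pass the test either (edgeR adjusted p = 0.192). The difference between the populations was called with Hlf called after thinning (0.33, edgeR adjusted p = 0.0476).

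Ccnd1, encoding cyclin D1 (chromosome 7, 144929931 to 144939925, minus strand), was measured in fewer counts and varied more. Its level in Hlf-positive cells was 29.6, 22.3, 24.9 and 34.4 CPM in control and 39.9, 21.1, 14.3 and 31.2 at 3 h, where mice lay on both sides of the control range (-0.08 ± 0.22, edgeR adjusted p = 0.842). A stricter choice of cells turned this into a called fall, of -0.80 with at least 2 Hlf UMIs (adjusted p = 0.00539) and of -0.94 with Hlf called after thinning (adjusted p = 0.00179). In Hlf-negative cells it was 16.4, 14.5, 15.8 and 11.8 in control and 32.5, 21.1, 21.2 and 28.8 at 3 h, a rise of 0.73 ± 0.21 without overlap (edgeR adjusted p = 0.0134). The 2 changes differed by -0.80 ± 0.20 (edgeR adjusted p = 0.0148). This difference was lost without 3 h mouse 3, the mouse with the lowest Hlf-positive level (-0.61 ± 0.21, adjusted p = 0.161), without control mouse 1 (-0.73 ± 0.22, adjusted p = 0.0976) and when the mouse was not used as a block. In Hlf-negative cells Ccnd1 differed from control by 0.47 ± 0.18 at 24 h (edgeR adjusted p = 0.0843, but 0.0217 without 24 h mouse 4 and 0.0297 without 72 h mouse 2) and by 0.48 ± 0.19 at 72 h (adjusted p = 0.0756, but 0.0279 without 24 h mouse 1 and 0.0384 without 24 h mouse 4). DESeq2 called both (0.50 each, adjusted p = 0.0239 and 0.0183), as did the likelihood ratio test (0.0499 and 0.0391), and 1 other choice of cells called each of them (0.0486 with Hlf called after thinning at 24 h and 0.0445 with HSC markers at 72 h).

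Cdk6 (chromosome 5, 3341485 to 3531008, plus strand), the kinase partner of the D cyclins, was measured in many counts in both populations. Its level in Hlf-positive cells was 414, 393, 426 and 333 CPM in control and 407, 305, 336 and 404 at 3 h, in overlapping ranges (-0.15 ± 0.08, edgeR adjusted p = 0.234). It was called lower by library size alone (-0.31, adjusted p = 0.0191) and without a filter on low counts (-0.18, adjusted p = 0.0168). In Hlf-negative cells it was 399, 418, 412 and 413 in control and 445, 435, 462 and 451 at 3 h, which did not overlap (0.13 ± 0.04, edgeR adjusted p = 0.0057). With scaling by library size alone this last difference was -0.01 (adjusted p = 0.864). Under that scaling the median of all genes at 3 h was -0.1665 in Hlf-negative and -0.1926 in Hlf-positive cells. The difference between the 2 changes was -0.32 ± 0.09 (edgeR adjusted p = 0.0783), and it was called without any one of 5 mice (adjusted p = 0.0198 without 3 h mouse 1), without a filter on low counts (-0.26, 0.00675) and with the likelihood ratio test (-0.31, 0.0386). The thinned share of Hlf-positive cells with a Cdk6 UMI was 74.0% ± 3.04 in control and 62.5% ± 4.14 at 3 h (exact permutation test, p = 0.0286, 0.171 adjusted; 86.2% and 72.7% without thinning, and 82.5% and 78.6% in the thinned erythroid gate).

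**Figure D2:**
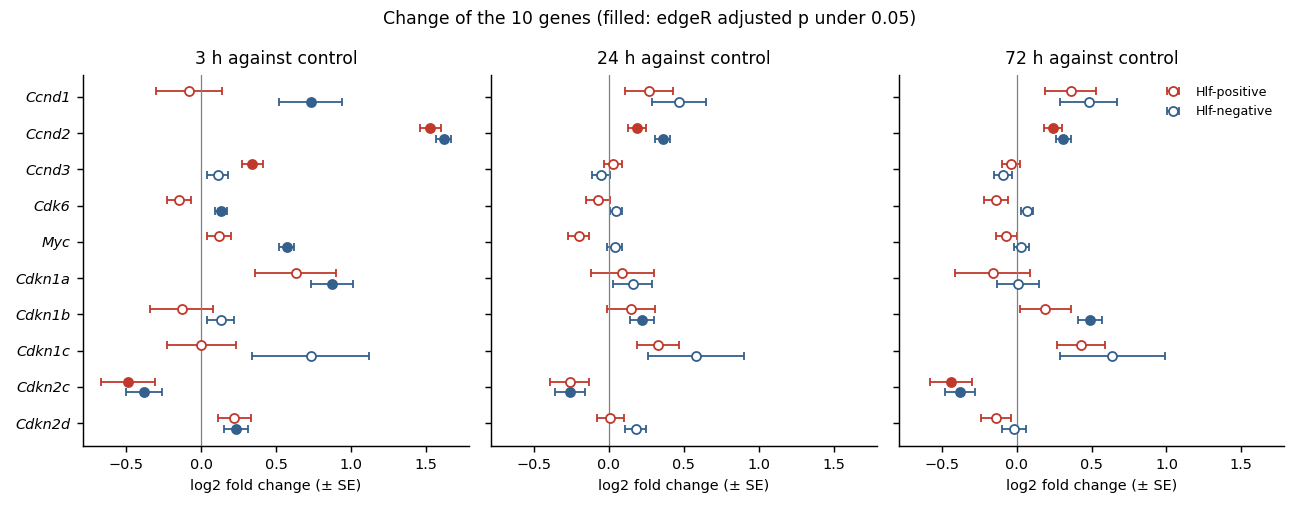
Log2 fold change ± SE of each gene (horizontal axes) at 3, 24 and 72 h against control in Hlf-positive (red) and Hlf-negative (blue) cells, with filled points where the edgeR adjusted p was under 0.05. At 3 h Ccnd2 stood at 1.53 and 1.62, while Myc, Ccnd1 and Cdkn1a were called in Hlf-negative cells at 0.57, 0.73 and 0.87, and by 72 h the largest called change was 0.49 (Cdkn1b, Hlf-negative cells).

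Of the INK4 inhibitors, Cdkn2c (chromosome 4, 109660876 to 109667189, minus strand) was lower after treatment in both populations. In Hlf-positive cells its level was 19.8, 26.9, 23.6 and 37.0 CPM in control and 20.9, 16.5, 18.1 and 12.6 at 3 h. It was 19.5, 23.0, 15.6 and 19.8 at 24 h, and 14.8, 19.8, 18.7 and 17.5 at 72 h. The control range was wide, with mouse 4 highest, and it met or overlapped the range of every later time point at its lower end. The fall was 0.49 ± 0.18 at 3 h (edgeR log2 -0.49, adjusted p = 0.0429) and 0.44 ± 0.14 at 72 h (edgeR log2 -0.44, adjusted p = 0.0299), and the difference at 24 h was -0.26 ± 0.13 (edgeR adjusted p = 0.235). The call at 3 h was lost without any one of 6 mice, up to an adjusted p of 0.163 (-0.37 ± 0.19) without 3 h mouse 4. Among these, leaving out control mouse 4 gave -0.46 ± 0.18 (adjusted p = 0.0553), control mouse 2 -0.40 ± 0.19 (0.14), control mouse 3 -0.49 ± 0.19 (0.0694), 3 h mouse 2 -0.47 ± 0.20 (0.0858) and 3 h mouse 3 -0.54 ± 0.21 (0.0698). It was also lost with DESeq2 (-0.50, adjusted p = 0.0903), DESeq2 size factors (-0.47, 0.051), HSC markers in place of Hlf (-0.65, 0.0936) and at least 2 Hlf UMIs (-0.54, 0.113). The call at 72 h was lost without 72 h mouse 1 (-0.35 ± 0.15, adjusted p = 0.137), 72 h mouse 4 (0.0549), control mouse 2 (0.144) or control mouse 3 (0.0685), and with DESeq2 (-0.45, 0.0964), HSC markers (-0.53, 0.117) or Hlf called after thinning (-0.47, 0.0899). The value was below 0 in each of these settings. In Hlf-negative cells Cdkn2c fell at 3 h (-0.38 ± 0.12, edgeR adjusted p = 0.00954), 24 h (-0.26 ± 0.10, adjusted p = 0.044) and 72 h (-0.38 ± 0.10, adjusted p = 0.00512). The first call was lost without 3 h mouse 3 (adjusted p = 0.0543), the second without any one of 5 mice (up to 0.204 without 24 h mouse 2), with DESeq2 (0.136) and with HSC markers (0.0519), and the third held throughout. Its control levels there were 21.4, 21.7, 19.5 and 32.8, and those at 72 h were 14.2, 16.5, 18.0 and 17.5, without overlap.

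Cdkn2d (chromosome 9, 21288410 to 21291407, minus strand), the other INK4 gene, lay between 38.4 and 60.8 CPM in the Hlf-positive cells of all 16 mice, and none of its 3 differences from control passed the test. At 3 h it differed by 0.22 ± 0.11 (edgeR adjusted p = 0.145). After thinning it was detected in fewer Hlf-positive cells at 3 h, 20.5% against 25.3% in control (exact permutation test, p = 0.0286, 0.171 adjusted). In Hlf-negative cells it rose by 0.23 ± 0.08 at 3 h (edgeR adjusted p = 0.0318), in overlapping ranges of 32.3 to 42.0 in control and 33.8 to 45.6 at 3 h, and the call was lost without any one of 5 mice (adjusted p = 0.142 without 3 h mouse 2, 0.13 without control mouse 3). It was also lost by library size alone, at 0.09 (adjusted p = 0.431), and with DESeq2 (0.0545), HSC markers (0.0634) and no filter on low counts (0.0702).

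Among the CIP/KIP inhibitors, Cdkn1a (chromosome 17, 29090976 to 29100727, plus strand), the p53 target that encodes p21, had few counts. Its level in Hlf-positive cells was 11.3, 7.07, 12.4 and 5.29 CPM in control and 13.6, 18.0, 16.9 and 14.6 at 3 h. All mice at 3 h were above control, but the difference of 0.63 ± 0.27 did not pass the test (edgeR adjusted p = 0.0979). It passed with at least 2 Hlf UMIs (1.05, adjusted p = 0.0267), without a filter on low counts (0.60, 0.0213) and without 72 h mouse 1 (0.0473) or 4 (0.0306). In Hlf-negative cells the levels were 9.65, 9.66, 11.4 and 6.56 in control and 18.2, 14.1, 22.7 and 17.4 at 3 h, a rise of 0.87 ± 0.14 (edgeR adjusted p = 4.54e-06), and the level fell again by 24 h (edgeR log2 -0.71 ± 0.13 from 3 h, adjusted p = 8.4e-05). The difference between the populations was -0.26 ± 0.29 (edgeR adjusted p = 0.811).

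Cdkn1b (chromosome 6, 134920401 to 134925513, plus strand) was scattered in Hlf-positive cells, at 49.8, 61.2, 70.6 and 89.9 CPM in control, 50.8, 55.7, 66.3 and 47.8 at 3 h. It was 65.7, 75.0, 61.8 and 69.8 at 24 h and 60.2, 51.9, 80.7 and 89.2 at 72 h. These ranges overlapped and no contrast was called. In Hlf-negative cells, Cdkn1b was 37.9, 43.2, 39.3 and 48.5 in control and 51.5, 50.0, 59.1 and 67.3 at 72 h. The mice did not overlap, and the rise was 0.49 ± 0.08 (edgeR adjusted p = 1.19e-05). It was 0.22 ± 0.08 at 24 h (edgeR adjusted p = 0.0338), a call lost without any one of 5 mice (adjusted p = 0.171 without control mouse 1). The call was also lost with DESeq2 (adjusted p = 0.0863), HSC markers (0.0731), Hlf called after thinning (0.0797), library size alone (0.0644) and with the cells of highest UMIs left out (0.0503). In the main fits, Cdkn1b was the only gene of the 10 called between 24 and 72 h in either population (0.27 ± 0.07, Hlf-negative cells, edgeR adjusted p = 0.0207). This call was lost without 72 h mouse 4 (adjusted p = 0.145), 72 h mouse 3 (0.0663) or 24 h mouse 4 (0.0975). It was also lost with HSC markers in place of Hlf or Hlf called after thinning, at up to 0.346. With HSC markers in place of Hlf, Cdkn2d was called lower at 72 h than at 24 h in the cells with few such markers (-0.24 ± 0.07, edgeR adjusted p = 0.032).

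Cdkn1c (chromosome 7, 143458339 to 143461050, minus strand) encodes p57, which is enriched in quiescent HSCs. Its level in Hlf-positive cells was 16.6, 15.5, 11.7 and 5.29 CPM in control and 9.08, 21.1, 13.1 and 13.9 at 3 h. It was 16.5, 18.5, 21.2 and 15.5 at 24 h and 17.6, 19.1, 18.9 and 21.8 at 72 h. All 4 mice at 72 h were above all control mice, of which mouse 4 was lowest, but the difference of 0.43 ± 0.16 did not pass the test (edgeR adjusted p = 0.0523). It passed with DESeq2 size factors (0.0474), without a filter on low counts (0.0415), with the likelihood ratio test (0.0372) and without control mouse 1 (0.56, 0.0283), 3 h mouse 1 (0.0487) or 3 h mouse 2 (0.0407). In Hlf-negative cells it was at or below 3.36 in every mouse and at 0 in control mouse 4. After thinning, 8.47% of Hlf-positive control cells held a Cdkn1c UMI, at a median depth of 14482.5 UMIs before thinning, against 1.25% of the 240 control cells in the erythroid gate, at 24803.

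Myc (chromosome 15, 61985391 to 61990374, plus strand) changed differently at 3 h in the 2 populations, each taken as a whole. Hlf-negative cells were mixed, and in their megakaryocyte gate its median was 142 CPM in control and 147 at 3 h, by library size. In Hlf-negative cells its level was 141, 140, 159 and 143 CPM in control and 222, 236, 211 and 205 at 3 h. No mice overlapped, and the rise was 0.57 ± 0.05, or 1.49-fold (edgeR adjusted p = 3e-11). In Hlf-positive cells it was 170, 168, 169 and 148 in control and 202, 190, 177 and 159 at 3 h, where mouse 4 lay within the control range (0.12 ± 0.08, edgeR adjusted p = 0.325). The change in Hlf-positive cells was thus smaller by 0.49 ± 0.07 on the log2 scale within the same mice (edgeR log2 -0.49, adjusted p = 1.54e-05), and this held in all 24 alternative settings. At 24 h Myc was 166, 133, 142 and 142 in Hlf-positive cells, lower than at 3 h (-0.32 ± 0.08, edgeR adjusted p = 0.00174, but 0.0672 by library size alone at -0.19 ± 0.08 and 0.13 in cells with at least 2 Hlf UMIs), and 164, 147, 146 and 148 in Hlf-negative cells, also lower than at 3 h (-0.53 ± 0.05, edgeR adjusted p = 1.16e-10). Against control it was not called at 24 h in Hlf-positive cells (-0.20 ± 0.07, edgeR adjusted p = 0.071) or Hlf-negative cells (0.04 ± 0.05, adjusted p = 0.594). In Hlf-positive cells it was called lower by library size alone (-0.23, adjusted p = 0.0367), without a filter on low counts (0.0369), with Hlf called after thinning (-0.30, 0.0191) and without 24 h mouse 1 (-0.27, 0.0135), 3 h mouse 4 (0.0449) or 72 h mouse 4 (0.0489). The difference between those 2 changes, -0.26 ± 0.07, was called (edgeR adjusted p = 0.0362) but was lost without control mouse 1 (0.257) or 2 (0.169) and without 24 h mouse 2 (0.183) or 4 (0.0849), with DESeq2 size factors (0.0903), without a filter on low counts (0.155), with the cells of highest UMIs left out (0.0949) and without the mouse as a block (0.387). At 72 h Myc ranged from 147 to 182 in Hlf-positive and from 139 to 159 in Hlf-negative cells, overlapping with control in both.

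The contrasts between consecutive times summarize the later changes. A fall in them is not always a return, because Myc in Hlf-positive cells was not called higher at 3 h (0.12 ± 0.08, edgeR adjusted p = 0.325). From 3 to 24 h, 3 of the 10 genes fell and 0 rose in Hlf-positive cells (Ccnd2, Ccnd3 and Myc), where 11.2% of all genes fell and 6.24% rose, and 3 fell and 0 rose in Hlf-negative cells (Ccnd2, Cdkn1a and Myc), where 14.3% fell and 10.5% rose. From 24 to 72 h, 0 were called in Hlf-positive cells, with 0 also at an unadjusted p under 0.05, where 1.81% of all genes rose and 3.18% fell, and 1 rose and 0 fell in Hlf-negative cells, where 2.62% rose and 4.48% fell. Of the tests of a difference in change between the populations, 0 rose and 2 fell at 3 h (Myc and Ccnd1, against 0.625% and 1.63% of 11522 genes), 0 rose and 1 fell at 24 h (Myc, against 0.182% and 0.851%), and 0 were called at 72 h (0.0868% and 0.495% of all genes), where 2 of the 10 had an unadjusted p under 0.05.

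Before treatment, the 2 populations differed in 5 of the 10 genes, all higher in Hlf-positive cells, where 25.9% of all genes were higher and 25.0% lower in control mice. Cdkn1c was 3.30 ± 0.21 higher on the log2 scale (9.88-fold, edgeR adjusted p = 2.32e-19), Ccnd1 0.64 ± 0.12 (adjusted p = 1.61e-05), Cdkn1b 0.50 ± 0.08 (3.22e-07), Cdkn2d 0.40 ± 0.08 (1.39e-05) and Ccnd2 0.35 ± 0.05 (1.22e-08). These were 3 CDK inhibitors and 2 D cyclins, and all 5 calls held in 24 alternative settings. Not all were particular to Hlf-positive cells. Hlf-negative control cells of a megakaryocyte gate had medians of 92.6 CPM for Cdkn2d, 241 for Ccnd2 and 42.8 for Ccnd1, by library size. In Hlf-positive control cells outside the myeloid gates these were 71.9, 219 and 45.3. Cdkn1b and Cdkn1c were at 58.2 and 5.97 in the megakaryocyte gate, against 79.7 and 19.1. Between the 2 populations, Myc differed by 0.09 ± 0.05 (edgeR adjusted p = 0.132), Cdk6 by -0.13 ± 0.06 (0.0845), and Ccnd3, Cdkn1a and Cdkn2c by at most 0.09 in either direction. Of these, some were called under other settings: Cdkn1a was lower with at least 2 Hlf UMIs (-0.92, adjusted p = 0.000162) and with Hlf called after thinning (-0.76, 0.00478), Cdk6 was lower under the same choices (-0.31, 0.0205, and -0.26, 0.00387), with the cells of highest UMIs left out (0.0134), without a filter on low counts (0.00012) and without 3 h mouse 2 (0.0439) or 72 h mouse 4 (0.0408). Myc was higher by library size alone (0.20, adjusted p = 0.000662), where the median of all genes was 0.1299, and without control mouse 3 (0.17, 0.0162) or 3 h mouse 1 (0.12, 0.0267). Hlf itself chose the cells, so its own difference is no finding. Its level within Hlf-positive cells rests on the same choice, because each of these cells held at least 1 Hlf UMI, and nothing is read from it. The edgeR fit gave 0.24 ± 0.10 at 3 h (adjusted p = 0.071), and the adjusted p was 0.773 at 24 h and 0.281 at 72 h, each against control. From 3 to 24 h it gave -0.30 ± 0.09 (edgeR adjusted p = 0.0229).

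Other cell-type markers moved with these changes. In Hlf-positive cells, 6 of the 7 myeloid progenitor markers (Mpo, Elane and others) fell at 3 h, 2 at 24 h and all 7 at 72 h. Their summed level was 5060 to 11100 CPM in control, and 3510 to 5980, 4280 to 6430 and 3860 to 5620 at the 3 later times, with 0 of the 7 undetected. The share of Hlf-positive cells in the myeloid gates fell from a mean of 57.1% in control to 32.4% ± 5.56, 49.2% ± 2.38 and 38.4% ± 4.81 (SD, n = 4) at 3, 24 and 72 h (exact permutation test, p = 0.0286 at each time). With cells thinned to 5000 UMIs it was 42.2% ± 4.26 in control and then 24.4% ± 2.07, 34.9% ± 1.41 and 28.3% ± 2.53, without overlap (exact permutation test, p = 0.0286 at each time). Of the 13 HSC markers, which include Hlf, the gene that chose the cells, 0 fell against control at any time. At 3 h 3 rose, among them Mecom (0.90) and Ly6a (2.87), the gene of the surface antigen Sca-1, which is also induced by interferon, and 2 rose at 24 h and 4 at 72 h. The summed level of the 12 without Hlf was 307 to 473 CPM in control, 736 to 1020 at 3 h and 508 to 554 at 24 h, and by 72 h its highest value was 458. Ly6a alone made up 66.5 to 100 CPM of this sum in control, 451 to 625 at 3 h and 214 to 250 at 24 h. No gain of the HSC markers as a set is therefore read from the sum. Of the other lists, 1 of 5 LMPP markers (Satb1) and the 1 tested gene of the lymphocyte list (Nkg7) fell at 3 h and 1 of 6 monocyte markers (Ms4a6c, 2.32) rose. Cd3e and Ms4a1 of the lymphocyte list were not detected in Hlf-positive cells, so Nkg7 is not read as a sign of lymphocytes. The median of the 6 monocyte markers was -0.34 at 3 h and -0.25 at 24 h, so Ms4a6c is not read as a sign of monocytes. Ms4a6c was also higher at 24 h (0.80), and Satb1 (-0.38), Notch1 (-0.70), another of the LMPP markers, and Nkg7 (-0.66) were lower at 72 h, while 0 of 6 erythroid and 0 of 6 megakaryocyte markers were called at any time. The part of these shifts in the changes of the 10 genes was not tested. The share of kept cells that were Hlf-positive was 37.3% ± 4.52 in control and 34.0% ± 2.84, 43.3% ± 3.56 and 40.2% ± 0.504 at 3, 24 and 72 h, with no difference past the exact permutation test (p = 0.314, 0.114 and 0.314).

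**Figure D3:**
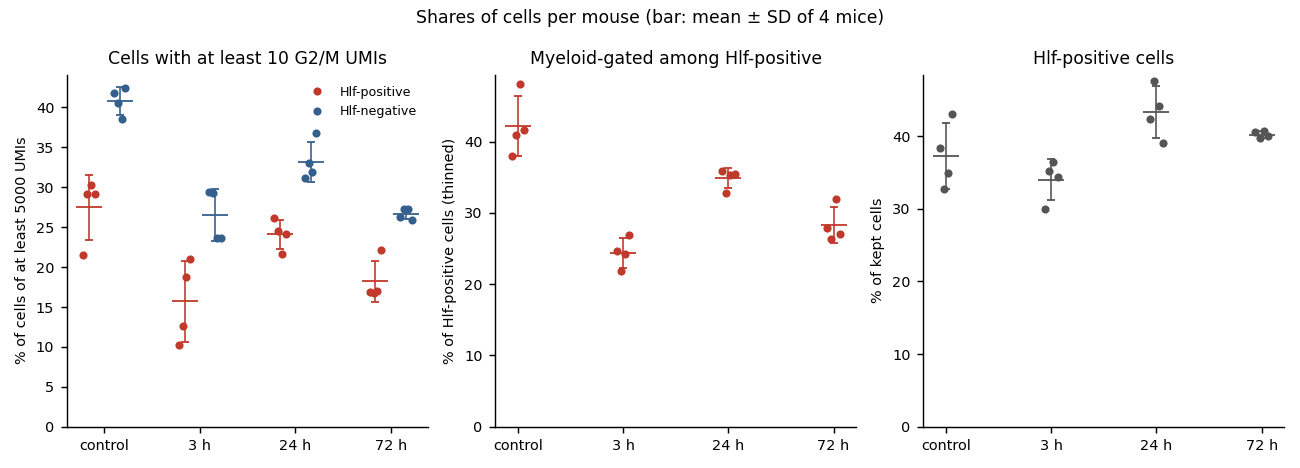
Percent of cells per mouse (points, with mean ± SD of 4 mice) by time point: cells with at least 10 of 5000 thinned UMIs from the 42 G2/M genes in Hlf-positive (red) and Hlf-negative (blue) cells, myeloid-gated cells among thinned Hlf-positive cells, and Hlf-positive cells among kept cells. The myeloid-gated share was lower than control in every treated mouse, and the G2/M share in Hlf-positive cells had its lowest mean, 15.7%, at 3 h.

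The changes were also fitted in the Hlf-positive cells outside the myeloid gates, an alternative chosen after the values had been seen. These were 374 control cells and 390, 776 and 609 cells at 3, 24 and 72 h. The gates used counts before thinning, so they took in fewer cells where depth was lower or where their markers had fallen. Thinning lowered the gated share of Hlf-positive control cells from 57.1% to 42.2%. The cells outside the gates at 3 h may therefore differ in kind from those in control. Outside the myeloid gates, Ccnd2 rose by 1.51 ± 0.08 at 3 h (edgeR adjusted p = 4.12e-21) and Ccnd3 by 0.35 ± 0.10 (adjusted p = 0.00765), close to the values in all Hlf-positive cells. With library size alone, Ccnd2 rose by 1.31 ± 0.08 and Ccnd3 differed by 0.16 ± 0.10 (adjusted p = 0.251), near the 0.18 ± 0.07 in all Hlf-positive cells by the same scaling. Cdkn2c fell at 3 h (-0.71 ± 0.23, edgeR adjusted p = 0.0249) and 72 h (-0.76 ± 0.19, adjusted p = 0.00812). Ccnd2 was not called outside the myeloid gates at 24 h (0.24 ± 0.08, edgeR adjusted p = 0.0582) or 72 h (0.22 ± 0.08, adjusted p = 0.0728). Cdkn2d at 72 h differed there by -0.35 ± 0.12 (edgeR adjusted p = 0.0725) and was called lower with library size alone (-0.40 ± 0.12, adjusted p = 0.0333). The part of the cell mix in the changes of these genes was not tested.

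2 further genes were called at 3 h outside the myeloid gates. In the same fit, 1724 of all tested genes were called at 3 h against control. The share of all genes is not given for this fit, so nothing particular to these genes is read from the count. Ccnd1 fell by 0.87 ± 0.21 (edgeR log2 -0.87, adjusted p = 0.00161) and Cdk6 by 0.48 ± 0.09 (edgeR log2 -0.48, adjusted p = 8.71e-05), and both calls held without control mouse 4, which gave 11 such cells (adjusted p = 0.00285 and 3.23e-05), and with library size alone. The Ccnd1 level was 35.4 to 46.6 CPM in control (median 45.3) and 12.8 to 36.9 at 3 h (20.4), by library size, and its medians were 44.0 at 24 h and 44.2 at 72 h. The Cdk6 level was 307 to 404 in control (median 372) and 192 to 274 at 3 h (240), with medians of 336 at 24 h and 288 at 72 h. All 4 mice at 3 h were below all control mice for Cdk6, and 3 of them for Ccnd1. Both genes rose again from 3 to 24 h (Ccnd1 0.96 ± 0.19, adjusted p = 0.000176; Cdk6 0.38 ± 0.09, adjusted p = 0.00121, edgeR). At 72 h Cdk6 differed from control by -0.26 ± 0.08 (edgeR adjusted p = 0.0505, and 0.0226 without control mouse 4). In cells with at least 3 HSC markers, a smaller set, neither passed the test at 3 h (Ccnd1 -0.38 ± 0.26, edgeR adjusted p = 0.411, and Cdk6 -0.32 ± 0.14, 0.164), while Ccnd2 (1.32 ± 0.09, adjusted p = 5.85e-17) and Ccnd3 (0.37 ± 0.10, 0.00928) did. Myc outside the myeloid gates differed between 24 h and 3 h by -0.27 ± 0.14 (edgeR adjusted p = 0.256), close in size to the -0.32 ± 0.08 in all Hlf-positive cells but with a larger error. Hlf-positive control cells within the myeloid gates had medians of 19.1 CPM for Ccnd1 and 444 for Cdk6, by library size. The part of the uneven gating in the falls of Ccnd1 and Cdk6 at 3 h was not tested.

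**Figure D4:**
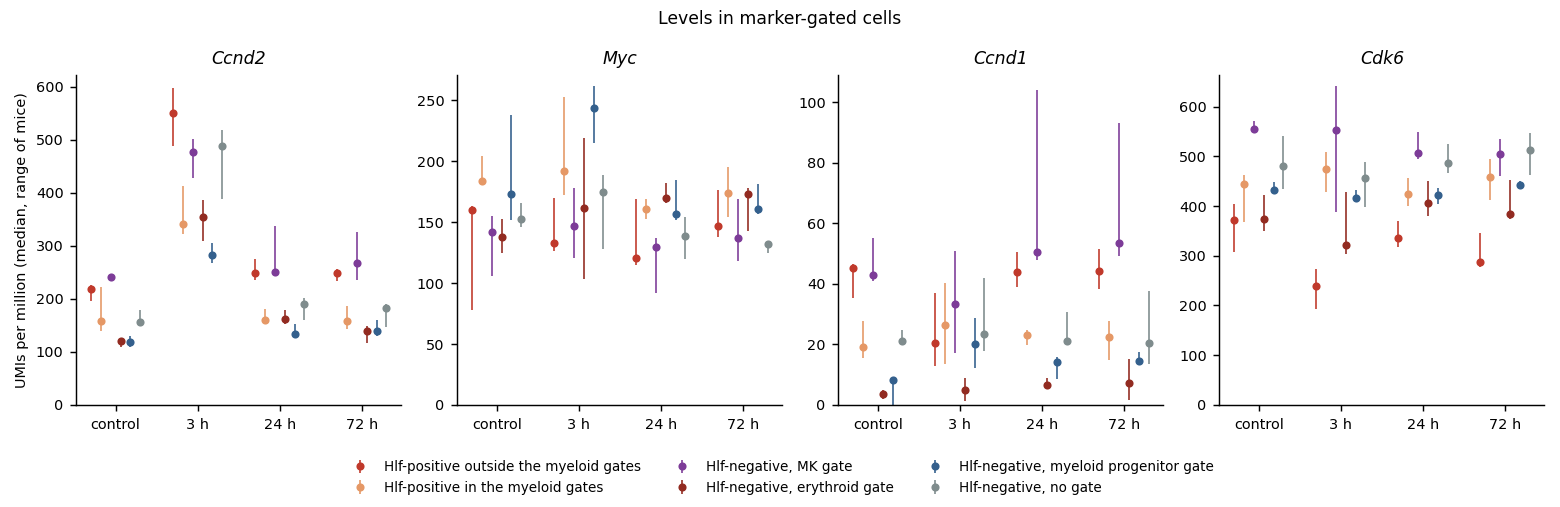
Levels of Ccnd2, Myc, Ccnd1 and Cdk6 in CPM by library size (vertical axes; points are medians and lines ranges over the mice with at least 10 such cells) by time point in marker-gated cells. Ccnd2 was at its highest at 3 h in all 6 cell sets. Within Hlf-positive cells outside the myeloid gates, the medians of Ccnd1 and Cdk6 were lower at 3 h, at 20.4 and 240, than at the other time points.

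Levels in marker-gated cells are given as a description, because the gates were set on the same cells, and a typical gene is lower at 3 h on this scale by library size alone. Control mouse 4 had too few cells for most gates. Ccnd2 in Hlf-negative cells had a median of 118 CPM in control and 283 at 3 h in the myeloid progenitor gate, 120 and 355 in the erythroid gate, and 241 and 478 in the megakaryocyte gate (Pf4, Itga2b and others). In each of these gates every mouse at 3 h was above every control mouse. Myc was 173 in control and 244 at 3 h in the myeloid progenitor gate, 138 and 162 in the erythroid gate and 142 and 147 in the megakaryocyte gate, and the mice overlapped in all 3. In Hlf-negative cells of no gate it was 153 and 175, also in overlapping ranges. A small difference in Myc was thus not particular to Hlf-positive cells. Within the myeloid gates, Hlf-positive cells had a Myc median of 184 in control and 192 at 3 h, and those outside had 160 and 133. Ccnd1 in the myeloid progenitor gate was 8.11 in control and 20.1 at 3 h, whereas in the megakaryocyte gate it was 42.8 and 33.4. Ccnd3 in Hlf-negative cells was 138 in control and 67.1 at 3 h in the erythroid gate, and 228 and 173 in the megakaryocyte gate. It was 105 and 107 in the myeloid progenitor gate and 112 and 134 in cells of no gate, and the mice overlapped in each of these.

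The expression of mitotic genes was followed beside these regulators. A mean of 27.5% ± 4.05 (SD, n = 4) of Hlf-positive control cells held at least 10 UMIs of the 42 G2/M genes after thinning to 5000, against 15.7% ± 5.05, 24.1% ± 1.86 and 18.2% ± 2.60 at 3, 24 and 72 h (exact permutation test, p = 0.0286, 0.143 and 0.0571). In Hlf-negative cells the shares were 40.8% ± 1.71, 26.5% ± 3.29, 33.2% ± 2.52 and 26.7% ± 0.705 (p = 0.0286 at each time, exact permutation test). Outside the myeloid gates the means were 23.3%, 11.6%, 18.3% and 13.9% (exact permutation test, p = 0.0571, 0.143 and 0.0857). In cells with at least 3 HSC markers they were 14.5%, 9.56%, 17.4% and 10.9%, where control mouse 4 had 0 of 10 cells. The exact test over 4 and 4 mice cannot give a p below 0.0286.

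Within Hlf-positive control cells, those with at least 10 and those with at most 2 G2/M UMIs had unlike levels of the 10 genes. Levels in this paragraph are CPM by library size, a scale on which a typical gene is lower at 3 h. They are medians over the mice with enough cells, 3 of them in control. Ccnd2 was at 106 CPM in cells with many G2/M UMIs and 250 in those with few, Ccnd1 at 11.7 and 40.1, Cdkn1c at 7.60 and 33.3, and Myc at 140 and 196. Cdkn2c had the opposite order, at 34.5 and 15.9, and so did Cdk6, at 461 and 382. The share of cells with many G2/M UMIs was lower at 3 h, where Ccnd2 was higher and Cdkn2c lower, and its part in the fitted changes was not tested. The Ccnd2 level at 3 h was higher than control within each class, at 313 against 106 and at 556 against 250, without overlap between mice. Cdkn2c in cells with few G2/M UMIs was 15.9 in control and 10.6, 15.4 and 14.6 at 3, 24 and 72 h. In the same cells Ccnd1 was 40.1 in control and 20.0, 42.6 and 39.9 afterwards, and Cdk6 was 382 and then 239, 310 and 354. Cells with many G2/M UMIs differed from this. Their Ccnd1 was 11.7 in control and higher at 3 h, at 27.9 in overlapping ranges, then 16.4 and 16.4. Their Cdkn2c was 34.5 and then 22.9, 27.1 and 25.0, without overlap between control and 72 h. Their Cdk6 was 461 and then 378, 449 and 384.

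The pathway around the 10 genes was examined in 8 lists, in the Hlf-positive fit, where the median of all genes was -0.031, -0.002 and 0.005 at 3, 24 and 72 h. Of all 11004 genes in this fit, 13.5% rose and 9.13% fell at 3 h. The shares were 5.18% and 3.32% at 24 h, and 7.82% and 7.90% at 72 h. The lists were described by counts and medians, and nothing particular to a list was read from them. Of the 12 tested CDK inhibitors and partners, 2 rose and 4 fell at 3 h (median -0.08), 0 rose and 3 fell at 24 h (-0.09), and 0 rose and 4 fell at 72 h (-0.11). Ccne2, encoding the cyclin E2 that acts with CDK2 at the start of S phase, rose at 3 h (0.74, edgeR adjusted p = 0.000967), whereas Ccna2, the S and G2 phase cyclin, fell (-0.75, adjusted p = 0.00122), and so did the CDK subunit gene Cks1b (-0.44, adjusted p = 0.00224). Ccna2 was also lower at 24 h (-0.39) and 72 h (-0.78), as was Cks1b (-0.31 and -0.54), and Fzr1, an activator of the anaphase-promoting complex, was called lower at both (-0.32 and -0.35).

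Of the 17 genes of the RB and E2F family, 2 rose and 2 fell at 3 h (median 0.06), 0 were called at 24 h (median 0.02), and 2 rose at 72 h (median 0.15). The pocket protein gene Rbl1 (p107) rose at 3 h (0.52, edgeR adjusted p = 0.00918) and Rbl2 (p130), which acts in quiescent cells, fell (-0.55, adjusted p = 0.0204), as did the E2F partner gene Tfdp2 (-0.32, adjusted p = 0.0125). At 72 h Tfdp1 (0.59) and Rb1 (0.50) were higher. Of 11 p53 targets, 1 rose at 3 h (Aen, 0.35, edgeR adjusted p = 0.0256) and 0 were called later, with medians of -0.12, 0.01 and 0.09.

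In the MYC network, 3 of 11 genes rose and 2 fell at 3 h (median 0.01), 0 were called at 24 h (median 0.03) and 2 rose at 72 h (median 0.16). Mycn, the MYC family gene N-myc, rose at 3 h (0.84, edgeR adjusted p = 1.67e-05) and was above control at 72 h (0.65, adjusted p = 0.000295). The shared partner gene Max rose at 3 h (0.50, adjusted p = 1.37e-06), and Mxd4, which encodes an antagonist of MYC, fell (-0.85, adjusted p = 1.04e-07). Of 32 MYC targets, mostly genes of ribosome production, 9 rose and 2 fell at 3 h (median 0.02), 5 rose and 1 fell at 24 h (0.02), and 5 rose and 3 fell at 72 h (0.00). Wdr43 (1.19, edgeR adjusted p = 1.86e-18), the RNA helicase gene Ddx21 (1.09, adjusted p = 2.07e-16) and the nucleolar GTPase gene Gnl3 (0.71, adjusted p = 8.03e-10) led at 3 h, and Wdr43, Ddx21 and Tcof1 led at 24 h and 72 h, at 0.35 to 0.65.

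Of 42 S phase genes, 6 rose and 0 fell at 3 h (median 0.05), 3 rose and 0 fell at 24 h (0.03), and 2 rose and 7 fell at 72 h (-0.08). The rises at 3 and 24 h stand beside 13.5% and 5.18% of all genes, and no rise of the list is read from them. The chromatin helicase gene Hells was higher at 3 h (1.05, edgeR adjusted p = 4.84e-13), 24 h (0.34) and 72 h (0.34), and the replicative helicase genes Mcm6 (0.34) and Mcm7 (0.31) rose at 3 h. At 72 h Pcna, the replication clamp, fell (-0.60, edgeR adjusted p = 2.87e-06), as did Mcm7 (-0.39). Of 42 G2/M genes, 0 rose and 25 fell at 3 h (median -0.63), 13 fell at 24 h (-0.37) and 36 fell at 72 h (-0.70). The mitotic kinase gene Plk1 fell at 3 h (-1.20, edgeR adjusted p = 2.18e-05) and 72 h (-1.22, adjusted p = 7.56e-07), Ube2c was lower at 24 h (-0.89, adjusted p = 0.00206), and Aurkb was lower at 72 h (-0.80, adjusted p = 1.18e-07). Hjurp (-0.57) at 3 h, Cks2 at 3 h (-0.78) and 24 h (-0.57), Cdk1 (-0.38) at 24 h and Smc4 (-0.50) at 72 h were the others with the smallest adjusted p.

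Of 22 genes linked to quiescence, 0 rose and 4 fell at 3 h (median -0.03), 0 rose and 3 fell at 24 h (-0.10), and 3 rose and 2 fell at 72 h (0.08). Ccng2, the FOXO target encoding cyclin G2 (-1.09, edgeR adjusted p = 0.000201), Gadd45a (-1.02, adjusted p = 0.00295) and the TGFβ inhibitor Smad7 (-0.69, adjusted p = 0.000178) fell at 3 h. At 72 h Txnip (0.65, adjusted p = 4.3e-05) and Ndn, encoding necdin (0.53, adjusted p = 0.0357), rose, and Gadd45b fell (-0.97, adjusted p = 9.82e-06). A list of 8 interferon-stimulated genes, such as Isg15, Ifit1, Irf7 and Mx1, was followed beside the treatment, with 8 higher at 3 h (median 5.16), 7 higher at 24 h (1.37) and 3 lower at 72 h (-0.72). The control mice were uneven in these genes, with Isg15 at 33.1 to 159 CPM and Ifit3 at 0.221 to 39.7, which limits the reading at 72 h. Their summed level was 303 to 650 CPM in control and 234 to 263 at 72 h.

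**Figure D5:**
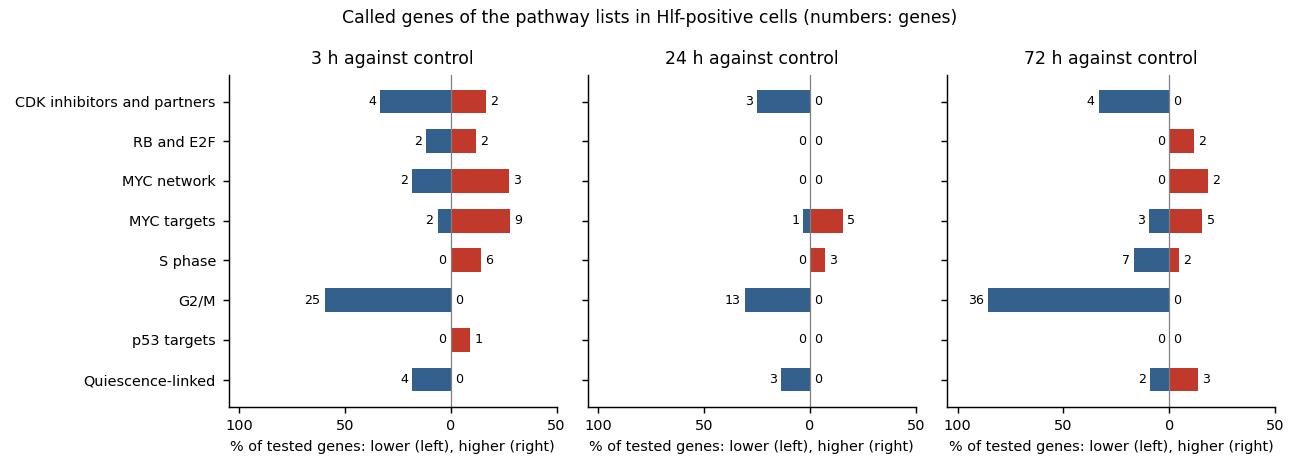
Percent of the tested genes of each list that were called lower (blue, left) or higher (red, right) in Hlf-positive cells at 3, 24 and 72 h against control, with the number of genes beside each bar (edgeR, adjusted p under 0.05). The 42 G2/M genes were lower in 25, 13 and 36 cases, and the 10 genes described above are in none of these lists. Among all tested genes, 13.5%, 5.18% and 7.82% were called higher and 9.13%, 3.32% and 7.90% lower at the 3 times.

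The genes whose levels followed each regulator most closely over the 16 Hlf-positive sums were taken from 7684 genes, as a description over samples that share libraries. Ccnd2 varied most like Dtx3l, Gbp7 and Pnpt1 (Pearson's r = 0.98 each), and Ccnd3 most like Snx2 (0.97), Trim21 and 9930111J21Rik2 (0.96 each). Cdkn2c was closest to Bora (0.90), Cuedc2 and Zdhhc12 (0.86 each), and Cdkn1c to Hebp1, Nefh (0.91 each) and Dach1 (0.88). Myc was closest to Smim11 (0.89), Snapc3 (0.85) and Dhx16 (0.83). Ccnd1 was closest to Setd6 (0.86), Pla2g12a and Ydjc (0.84 each), and Cdk6 to Pmvk (0.83), Atp8b4 (0.82) and Nkg7 (0.80). Cdkn1b was closest to Ptbp3 (0.86), Ppp1r15a and Mospd1 (0.85 each), Cdkn1a to Brcc3 (0.82), Ap2b1 (0.81) and Armc3 (0.79), and Cdkn2d to Zfp687 (0.85), Cntrl (0.81) and Ggt5 (0.80).

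Promoter sequences from RefSeq (GRCm38.p6, 250 bases before to 50 after a start) were held for 6 of the 10 genes, in 9 entries. They were searched on both strands for the GAS motif TTCNNNGAA, the interferon-response motif GAAANNGAA, the E2F motifs TTTCGCGC and TTTGGCGC and the MYC/MAX E-box CACGTG, which occurred in 8.30%, 8.56%, 0.323%, 0.514% and 7.15% of 32851 promoters. Of the 9 entries, only the second start of Cdkn2c (chr4:109665323-109665622, minus strand) and Cdk6 (chr5:3343643-3343942, plus strand) held a match, an E-box in both. They are shown with the E-box in capitals, beside the first start of Ccnd3 (chr17:47504801-47505100, plus strand), the entry of a gene that rose at 3 h in Hlf-positive cells, where none of these letters were found.
Cdkn2c, start 2: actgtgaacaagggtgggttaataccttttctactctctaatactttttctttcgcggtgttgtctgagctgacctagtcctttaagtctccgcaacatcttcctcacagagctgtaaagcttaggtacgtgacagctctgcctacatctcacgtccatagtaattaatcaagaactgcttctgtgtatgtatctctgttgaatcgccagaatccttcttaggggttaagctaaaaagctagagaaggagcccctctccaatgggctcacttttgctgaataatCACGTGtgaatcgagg
Cdk6: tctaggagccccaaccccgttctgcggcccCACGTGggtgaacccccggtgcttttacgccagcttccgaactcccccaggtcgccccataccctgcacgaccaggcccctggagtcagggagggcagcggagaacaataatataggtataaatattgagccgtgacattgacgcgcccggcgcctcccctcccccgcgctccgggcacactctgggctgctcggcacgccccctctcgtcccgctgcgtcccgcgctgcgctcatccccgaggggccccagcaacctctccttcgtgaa
Ccnd3, start 1: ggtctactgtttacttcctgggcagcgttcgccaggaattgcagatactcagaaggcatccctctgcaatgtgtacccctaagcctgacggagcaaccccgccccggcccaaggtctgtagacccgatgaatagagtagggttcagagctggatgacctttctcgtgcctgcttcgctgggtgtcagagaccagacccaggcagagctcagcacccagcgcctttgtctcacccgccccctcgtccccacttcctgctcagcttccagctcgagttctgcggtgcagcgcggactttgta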

How the data were processed

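UMI counts per gene and barcode, deposited by the authors without normalization, had been made with Cell Ranger 3.1.0 on mm10, and the hashtag calls with Seurat. The authors also deposited total hashtag counts and a hashtag margin score per barcode, which were not used. Barcodes with a single hashtag, at least 700 genes and at most 5% mitochondrial counts were kept, the limits in the study's methods. Hashtag multiplets were removed. Doublets within a mouse remain, and an alternative left out the cells of highest UMIs. At most 1 barcode was shared between any pair of libraries. Counts were summed per mouse and population and tested with edgeR 4.0.16 (R 4.3.3): filterByExpr, TMM and robust quasi-likelihood over all 16 mice. The difference between populations used 32 sums with a term per mouse. DESeq2 1.42.0 was an alternative within each population, and the difference between populations was not tested with it. Shares and figures used Python 3.11.15, NumPy 2.4.6, SciPy 1.17.1, pandas 2.3.3 and matplotlib 3.10.9.

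Tested on simulated data, the Hlf-positive fit (11007 genes) recovered 64.6% of 2-fold and 100% of 4-fold changes. The Hlf-negative fit (11312 genes) recovered 67.7% and 99%, and the interaction (11510 genes) 16% and 93%. Of the calls in these fits, in the same order, 2.96%, 5.14% and 6.03% were false. Every simulated gene was drawn with the same spread, so these shares do not give the recovery of single genes. Recovery at the spread of each of the 10 genes was not tested. Their interaction SE at 3 h ran from 0.06 (Ccnd2) to 0.38 (Cdkn1c). The members and lists were chosen with earlier results of these data known. Some list genes are not reported here by name. Named list genes were the 3 of smallest adjusted p at each time among those called, named likeness genes those of highest Pearson correlation among genes with a mean of at least 10 CPM (log2 of CPM with a pseudocount of 1). Marker gates and the split by G2/M UMIs were set after values had been seen. The mice are separate animals, but the 4 of a time point share a library.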

Additional observations from a re-analysis of the deposited data

Results flagged for a closer look

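The change differed between Hlf-positive and Hlf-negative cells of the same mice in 3 cases (edgeR, interaction): Myc at 3 h by -0.49, Ccnd1 at 3 h by -0.80 and Myc at 24 h by -0.26 on the log2 scale. The first held in all 24 alternative settings, and the other 2 were lost without single mice. Hlf-negative cells were mixed, and Myc in their megakaryocyte gate had medians of 142 CPM in control and 147 at 3 h, by library size.

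In 8 of 84 groups of 4 mice, 1 mouse stood apart from the other 3 beyond Dixon's critical value at the 95% level. Chance gives this in about 1 of 20 groups. In Hlf-positive cells these were Ccnd3 in mouse 1 at 24 h (131 CPM, others at 120) and mouse 1 at 72 h (120, others 115 to 116), and Myc in control mouse 4 (148, others 168 to 170). In Hlf-negative cells they were Cdkn1a in mouse 2 at 24 h (14.1, others 10.0 to 10.3), Cdkn2c in control mouse 4 (32.8, others 19.5 to 21.7) and Ccnd1 in mouse 2 at 72 h (29.2, others 18.3 to 19.7). Myc was higher in control mouse 3 (159, others 140 to 143) and in mouse 1 at 24 h (164, others 146 to 148). Control mouse 4 had 25 Hlf-positive and 33 Hlf-negative cells, the fewest of all mice.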

How the results depend on the processing

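Counts of calls are given here without the share of all genes called under the same setting, so nothing particular to these genes is read from them. The 6 calls of the 10 genes against control in Hlf-positive cells became 1 when a log2 change over 1 was required, 3 with DESeq2, 2 with cells chosen by HSC markers and 11 without a filter on low counts, which added Cdk6 and Cdkn1a at 3 h, Myc at 24 h and Ccnd1 and Cdkn1c at 72 h. Leaving out 1 mouse gave 2 to 7 calls, with 2 without control mouse 3 and 3 without control mouse 2. The 13 calls in Hlf-negative cells became 1 when a log2 change over 1 was required, and 11 to 15 without 1 mouse. The 3 differences between populations became 1 without the mouse as a replicate block, and 1 to 4 without 1 mouse, with 1 without control mouse 1. With the hashtag number as a replicate block there were 6 calls in Hlf-positive and 14 in Hlf-negative cells, where Ccnd1 was called at 24 h (0.50, adjusted p = 0.0435) and 72 h (0.51, 0.0396) and Cdkn1b at 24 h was not (0.21, 0.0545). Mice with the same number share only a number (correlations of their deviations from -0.12 to 0.20, 16 of 48 best with their own number). Of the 30 shares of thinned Hlf-positive cells, 5 had an unadjusted exact p under 0.05 and 0 an adjusted one, and 3 to 6 without 1 mouse. The Hlf-positive share at 72 h exceeded control (40.2% against 37.3%) by 1.46 to 4.92 percentage points without 1 mouse (exact permutation test, p = 0.0286 without control mouse 4). The 156 calls in the pathway lists against control became 97 to 180 without 1 mouse, with 97 without control mouse 2 or 3. The difference of Ccnd2 at 24 h turned to -0.05 with HSC markers, and that of Cdk6 at 3 h in Hlf-negative cells to -0.01 with library size alone. The cause was not tested in any of these cases.

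Depth limits the genes of few counts, Cdkn1a, Cdkn1c, Cdkn2c and Ccnd1, and the 25 Hlf-positive cells of control mouse 4 limit the control spread. Each time point is 1 library, so no batch term could be fitted.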
